A study of Homo sapiens with 6 samples.

Results

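Ribosomal protein pseudogenes were followed in human DLD-1 cells, a line from a colorectal adenocarcinoma, in which both alleles of TPR carried an auxin-inducible degron with the NeonGreen fluorescent protein and the RCC1 locus supplied the TIR1 protein that auxin needs to act. TPR forms part of the basket on the nuclear side of the nuclear pore. All 6 cultures received 200 nM Leptomycin B (LMB), a blocker of the export receptor CRM1, for 3 h by the paper's methods. The titles of all 6 samples carry 2 h instead, also those without auxin. The 3 libraries of the LMB group received nothing else. The 3 libraries of the LMB+auxin group also received 1 mM auxin for 2 h, which degrades TPR. The tags and LMB are therefore shared by both groups, cells without LMB were not analysed here, and the cells are an edited clone of 1 line. None of the 6 libraries comes from auxin-treated cells without the degron, so an effect of auxin itself cannot be told apart from TPR loss. Members were taken by symbol: RPL or RPS with a number, an optional A, L or X, then P and a number. This left 1495 of the 58051 genes in the table, of which 93 had more than 1 CPM (counts per library scaled to a common total) in at least 3 of the 6 libraries and were tested beside 16974 genes in all.

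Ribosomal proteins are the protein parts of the 2 ribosomal subunits, RPL for the large and RPS for the small, and their mRNAs are short, spliced and very abundant. Processed pseudogenes are copies of such mRNAs that were reverse transcribed and inserted elsewhere in the genome, so they lack the introns and usually the promoter of the parent gene. Because a young copy remains almost identical to its parent, short reads can be hard to assign to one or the other. The comparison asked whether RNA assigned to these copies changed after TPR degradation under LMB, and whether it changed as that of the parent gene did.

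Total counts were 28261903 to 35992425 per library. Of 8 colorectal epithelium markers, 7 were above 1 CPM in every library and CDX1 was near 0 (0 to 0.0312 CPM), while 6 markers of blood, stromal, endothelial and liver cells stayed at or below 0.814 CPM. Of the 93 pseudogenes, 80 were annotated as processed and 11 as transcribed processed. RPL32P3 and RPL23AP82 were annotated as transcribed unprocessed pseudogenes, against the label of the group. A single exon was annotated for 84 of the 93. The other 1402 copies did not pass the level filter, and 438 of those had no count in any library. A count of 0 at this depth does not show that the RNA was absent. RPL34P18, RPL7AP50 and RPL37P2 were the members just inside the filter, with 3 libraries above 1 CPM and unscaled means of 0.978, 1.02 and 1.16 CPM. Just outside it, 7 copies passed in 2 libraries, with unscaled means from 0.827 CPM (RPL12P1) to 1.04 CPM (RPL32P16).

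The 93 members were much closer to their parents in sequence than the copies that did not pass. Median identity to the parent transcript over aligned bases was 97.5% for the members, against 88.2% for the rest. Identity reached at least 98% for 42 members (45.2%) and for 28 of the 1402 other copies (2.00%). An open reading frame over at least 95% of the parent coding sequence, with no change of frame and no stop within it, was found in 40 members (43.0%) and 102 other copies (7.28%). The members came from 49 parent genes. For 90 of them the parent named by the symbol was also the ribosomal protein gene that shared the most runs of 20 bases with the copy, and the other 3 shared none with any. The share of windows of read length of a member that occurred nowhere else in the genome or in annotated transcripts, called unique windows here, had a median of 87.2%. It was 0 for RPS28P7, RPL36AP37, RPL39P3 and RPL21P16, which were identical to their parents over the aligned bases. How reads with several matches were counted is not given in the sources used here, so RNA of such a copy and RNA of its parent cannot be told apart.

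The sequences of 3 members called in the test below are shown beside their parents, because the number of differing bases is what separates reads of a copy from reads of the parent. Each line is 60 bases of coding sequence, 5′ to 3′ on the gene's strand, and capitals mark the bases that differ between copy and parent. Each window is the 60 bases with the most differences. The windows lie at chr3:185418582-185418641, chr3:101576740-101576799 and chr10:118872370-118872429 in GRCh38, all on the minus strand.
RPL4P4: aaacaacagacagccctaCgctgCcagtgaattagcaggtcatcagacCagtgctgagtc
RPL4: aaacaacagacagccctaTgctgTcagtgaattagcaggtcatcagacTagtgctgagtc
RPS18P5: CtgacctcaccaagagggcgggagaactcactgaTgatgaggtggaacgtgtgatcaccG
RPS18: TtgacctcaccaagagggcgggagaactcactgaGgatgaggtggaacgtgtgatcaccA
RPL17P36: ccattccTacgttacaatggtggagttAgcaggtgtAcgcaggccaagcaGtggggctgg
RPL17: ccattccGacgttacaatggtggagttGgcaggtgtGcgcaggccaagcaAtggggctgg

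More pseudogenes had a lower than a higher level with auxin, while most of their parent genes had a slightly higher one. The median log2 fold change, LMB+auxin over LMB, was -0.15 over the 93 members, of which 66 were lower and 27 higher. Over the 49 parents it was 0.03, with 13 lower and 36 higher, and over all 80 tested ribosomal protein genes it was 0.02, with 27 lower and 53 higher. Over all 16974 tested genes it was -0.00, with 50.8% of genes lower. In bulk RNA, fewer cells with a transcript and less of it per cell cannot be told apart. Pseudogenes of other genes were also mostly lower. Among 316 tested processed pseudogenes without a ribosomal parent the median was -0.08, with 214 lower and 102 higher, and the difference between this group and the members was not tested.

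**Figure D1:**
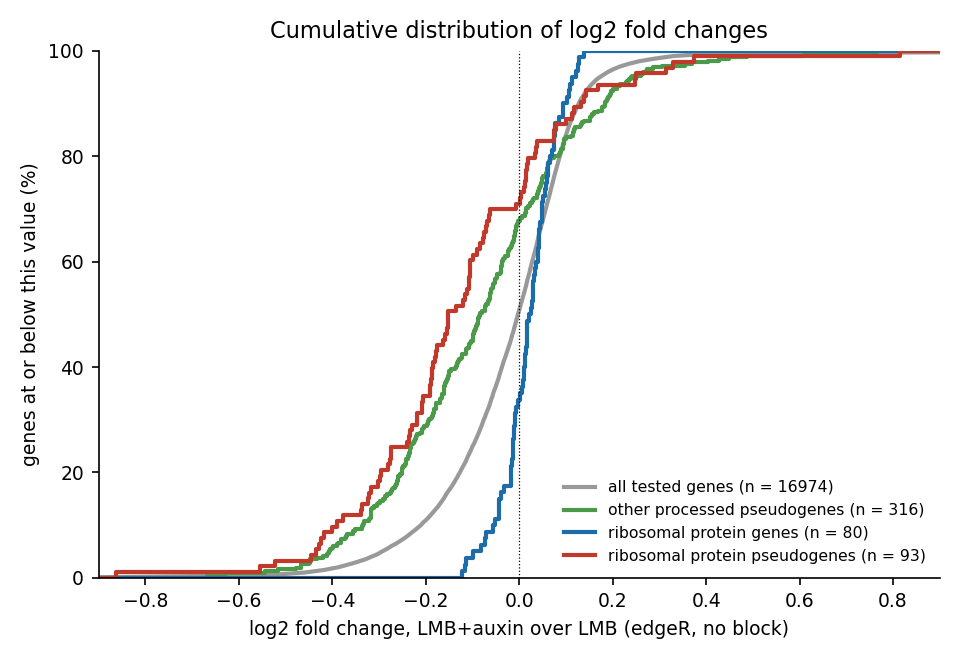
Cumulative share of genes (vertical axis, %) at or below each log2 fold change of LMB+auxin over LMB (horizontal axis, shown from -0.9 to 0.9) for the 93 ribosomal protein pseudogenes, 316 other processed pseudogenes, 80 ribosomal protein genes and all 16974 tested genes. The pseudogene curve crosses the middle of the vertical axis at -0.15 and that of the ribosomal protein genes at 0.02.

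The shift was not of one size in the same-numbered pairs of libraries. The median log2 difference of the members was -0.00 in pair 1, -0.15 in pair 2 and -0.20 in pair 3. Of the 93 members, 30 were lower in all 3 pairs (32.3%), beside 20.5% of all tested genes, and 11 were higher in all 3 (11.8%), beside 21.4%. Among the 316 other processed pseudogenes, 29.7% were lower in all 3 pairs and 8.23% were higher. Groups did not overlap for 6 members that were lower with auxin (6.63% of all genes) and for 2 that were higher (4.9%), so by that measure the members stood no higher than the background. For the other processed pseudogenes these shares were 11.1% and 2.85%. Leaving out LMB replicate 2 gave a median of -0.06 and leaving out LMB+auxin replicate 3 gave -0.07, and it lay between -0.19 and -0.15 without any other library. The members' CPM summed to 680, 861 and 738 in LMB replicates 1 to 3 and to 689, 818 and 667 in LMB+auxin replicates 1 to 3. The sum was highest in replicate 2 of each group, and it was slightly higher with auxin in pair 1 and lower in the other pairs. RPS2P5 alone, at a mean of 252 CPM over the 6 libraries, made up a large part of each sum and was itself higher with auxin in pair 1. The median of the members' means was 2.88 CPM, so the sums mainly describe the most abundant members.

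The members were also set beside all genes of like level. Below a mean of 2 CPM the median log2 fold change was -0.11 for 35 members and -0.08 for all 2003 tested genes of that level. From 2 to 5 CPM it was -0.14 for 26 members and -0.06 for 2480 genes. At 5 CPM or more it was -0.18 for 32 members, of which 25 were lower, and 0.01 for 12491 genes, of which 46.7% were lower. For other processed pseudogenes the medians in these classes, from low to high level, were -0.07, -0.09 and -0.07. Of those pseudogenes 67.3%, 68.0% and 68.1% were lower, beside 62.9%, 73.1% and 78.1% of the members. Across the 93 members, which share libraries, Pearson's r between mean CPM and log2 fold change was 0.0747 and Spearman's rho -0.228.

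By the edgeR quasi-likelihood test without a replicate term, 0 of the 93 members passed both an adjusted p under 0.05 (Benjamini-Hochberg) and a 1.3-fold change, which is what a call means here, beside 0.00589% of all tested genes. At an unadjusted p under 0.05 there were 8 members (8.60%), beside 4.37% of all genes, and 7 of them were lower, beside 3.35%. Among the other processed pseudogenes 8.23% had such a p. DESeq2 without the block also called 0 members, beside 0.0648% of all genes. Libraries with the same replicate number deviated together from their group means, and when the number was added as a block, 6 members were called, beside 1.18% of all genes. RPL18AP3, RPL4P4, RPL12P16, RPS18P5 and RPS15P4 were lower (0.884% of all genes) and RPL17P36 was higher (0.3%). The adjusted p alone was under 0.05 for 11 members, beside 4.36% of all genes, of which 10 were lower, beside 3.25%. With the block, an unadjusted p under 0.05 was reached by 28 members (30.1%, beside 19.9% of all genes), namely 24 lower members (25.8%, beside 11.8% of all genes) and 4 higher members (4.30%, beside 8.1%). None of the 80 ribosomal protein genes was called with or without the block. With the block, 17 of them had an unadjusted p under 0.05. Of the 316 other processed pseudogenes, 8 were called lower and 4 higher with the block. DESeq2 with the block called 0 members, beside 0.183% of all genes, gave 11 an unadjusted p under 0.05 (11.8%, beside 7.92% of all genes) and left 67 of the 93 without an adjusted p. Its adjusted p was 0.0597 for RPL18AP3, 0.0728 for RPL4P4, 0.101 for RPS18P5 and 0.228 for RPL12P16. RPS15P4 and RPL17P36 were among those without one.

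RPL18AP3 is a single exon of 528 bases (GRCh38 chromosome 12, 104265309 to 104265836, plus strand) inside TXNRD1, the gene of a thioredoxin reductase on the same strand, but outside its exons. It was at 7.90, 10.8 and 7.84 CPM in LMB replicates 1 to 3 and at 5.37, 7.14 and 5.54 CPM in LMB+auxin, from 159 to 336 counts per library. Every LMB library was above every LMB+auxin library, and replicate 2 was the highest in both groups. The means were 8.84 ± 1.67 and 6.02 ± 0.974 CPM (SD, n = 3 each), and the log2 fold change was -0.56 (SE 0.17), at an adjusted p of 0.954 by edgeR. With the replicate block it was -0.55 (SE 0.10), at an adjusted p of 3.2e-05 by edgeR, and DESeq2 with the block gave an adjusted p of 0.0597. The host gene TXNRD1 had a log2 fold change of 0.07. RPL18AP3 was the only member called with the block whichever of the 3 pairs was left out. Only 23.6% of its windows were unique.

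RPL4P4, a copy of the gene of a protein that lines the peptide exit tunnel, is a single exon of 1284 bases on chromosome 3 (185417495 to 185418778, minus strand), opposite to and outside the exons of the kinase gene MAP3K13. It carried 20 substitutions against the coding sequence of RPL4, and 85.2% of its windows were unique. Substitutions of single members are counted in the coding sequence only, without gaps, here and below. It was at 13.7, 17.6 and 14.7 CPM in LMB and at 11.5, 12.8 and 9.89 CPM in LMB+auxin, so the groups did not overlap. The log2 fold change was -0.43 (SE 0.13), and the edgeR adjusted p was 0.954 without and 7.4e-05 with the block. RPL4 itself was at 0.05 and MAP3K13 at 0.06 on the log2 scale. Without pair 3 the call with the block was lost (log2 fold change -0.35, edgeR adjusted p 0.0764).

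RPS18P5 (chromosome 3, 101576489 to 101576947, minus strand, 6 substitutions, 79.4% unique windows) copies the gene of a protein of the small subunit head and lies opposite to PCNP, outside its exons. It was at 14.4, 18.9 and 13.3 CPM in LMB and at 10.6, 14.9 and 10.1 CPM in LMB+auxin. It was lower in each pair, but the groups overlapped because LMB+auxin replicate 2 lay above LMB replicates 1 and 3. The log2 fold change was -0.39 (SE 0.18), and the edgeR adjusted p was 0.954 without and 0.000284 with the block. Without LMB replicate 2 the log2 fold change was -0.22, and without LMB+auxin replicate 2 it was -0.59. Leaving out pair 1 took the change with the block to -0.37, just below 1.3-fold.

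RPL12P16 (chromosome 2, 203190780 to 203191277, plus strand, 4 substitutions, 42.0% unique windows) copies the gene of a protein at the base of the ribosomal stalk. It lies wholly within an exon of NBEAL1 on the same strand, so reads in it could belong to either gene or to the parent. It was at 8.56, 12.7 and 8.57 CPM in LMB and at 6.75, 8.82 and 6.64 CPM in LMB+auxin, lower in each pair with overlapping groups. The log2 fold change was -0.43 (SE 0.18), and the edgeR adjusted p was 0.954 without and 0.00143 with the block. NBEAL1 was at -0.00 and RPL12 at 0.05 on the log2 scale. Without LMB replicate 2 the log2 fold change was -0.20, and without pair 2 the call with the block was lost (log2 fold change -0.35, edgeR adjusted p 0.119).

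RPS15P4 (chromosome 2, 171517270 to 171517716, minus strand, 3 coding substitutions, 75.8% unique windows) copies another gene of the small subunit head and overlaps no tested gene. Over all aligned bases, with gaps and bases outside the coding sequence counted, it was from 95% to under 98% identical to RPS15. It was at 3.15, 4.14 and 3.78 CPM in LMB and at 2.47, 3.33 and 2.36 CPM in LMB+auxin, again lower in each pair with overlapping groups. The log2 fold change was -0.45 (SE 0.18), and the edgeR adjusted p was 0.954 without and 0.0364 with the block. It was the least secure of the 5 falls, since leaving out any pair took its adjusted p to between 0.0703 and 0.453. Its parent RPS15 had one of the 2 most negative log2 fold changes among ribosomal protein genes, -0.12 (SE 0.15).

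RPL17P36 was the only member called higher. It copies the gene of another exit tunnel protein, with 15 substitutions and 95.1% unique windows, and lies on chromosome 10 (118872054 to 118872602, minus strand) within the long noncoding RNA gene LINC03036, which did not pass the level filter. It was at 2.95, 1.60 and 1.75 CPM in LMB and at 3.78, 2.95 and 4.25 CPM in LMB+auxin, from 50 to 135 counts per library. The groups did not overlap, although the highest LMB library and the lowest LMB+auxin library were nearly equal. The log2 fold change was 0.82 (SE 0.24), and the edgeR adjusted p was 0.954 without and 6.2e-05 with the block. Without pair 3 it was 0.59 with the block, with an edgeR adjusted p of 0.0967. The other 3 tested copies of RPL17 had negative log2 fold changes, from -0.22 to -0.07, and RPL17 itself was at 0.07.

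**Figure D2:**
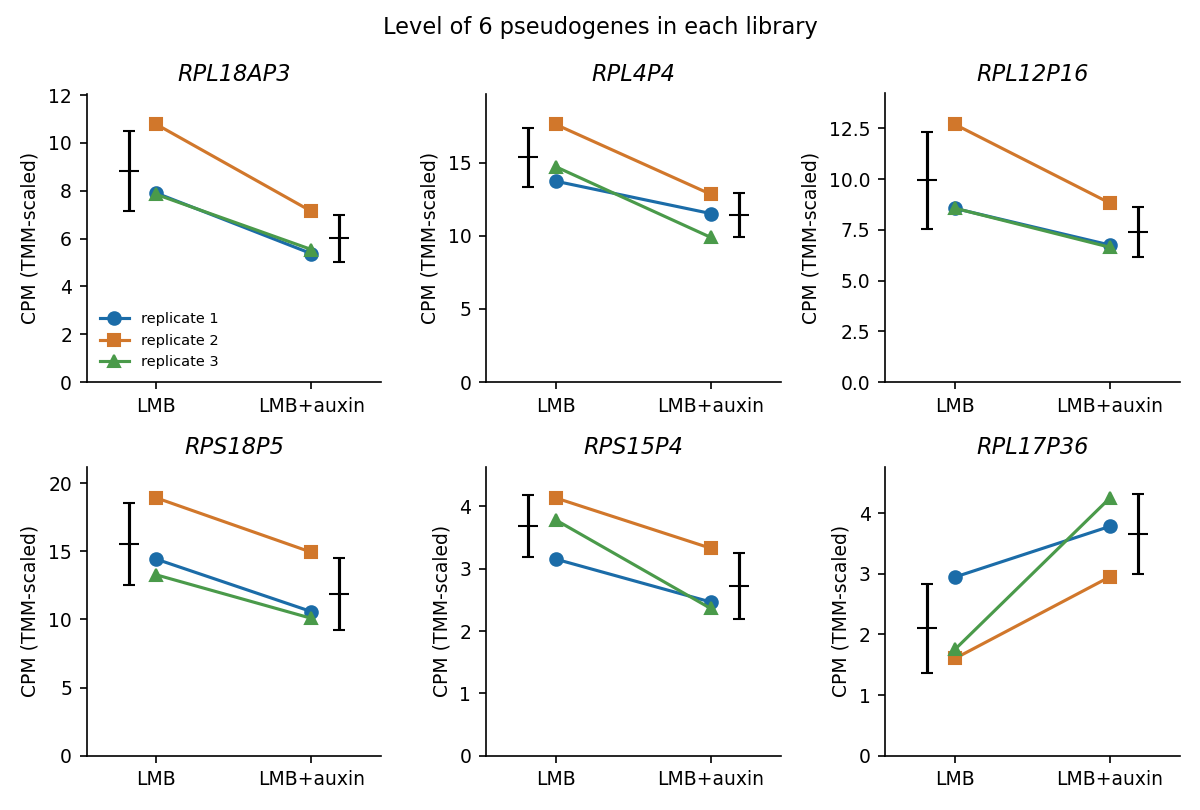
TMM-scaled CPM (vertical axis, from 0) of the 6 pseudogenes called with the replicate block, in LMB and LMB+auxin. Each line joins the libraries of 1 replicate number, and the black bars beside them give the mean ± SD of the 3 libraries. RPL18AP3, RPL4P4, RPL12P16, RPS18P5 and RPS15P4 fall and RPL17P36 rises in each of the 3 pairs.

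Set against its parent, the log2 fold change of the pseudogene was the lower one for 75 of the 93 members (80.6%). For scale, 61% of all tested genes had a log2 fold change of 0.0308 or less, near the parents' median of 0.03. Of the 316 other processed pseudogenes, 67.7% were below 0. The median difference, pseudogene minus parent, was -0.17, and it ran from -0.76 (RPL41P1) to 0.74 (RPL17P36). Counting each parent once, the median of its copies was below the parent for 41 of 49. The pseudogene to parent ratio was lower with auxin in all 3 pairs for 34 members and higher in all 3 for 9. No like share over all genes is given for these ratio counts. The median difference was -0.05 in pair 1, -0.18 in pair 2 and -0.21 in pair 3, so pair 1 again showed the smallest shift. The parents moved little: the log2 fold changes of the 80 ribosomal protein genes ran from -0.12 (RPS28) to 0.14 (RPL21), with RPL9 at 0.13 next to the top. Members share parents and libraries, so these counts are descriptions and were given no test.

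**Figure D3:**
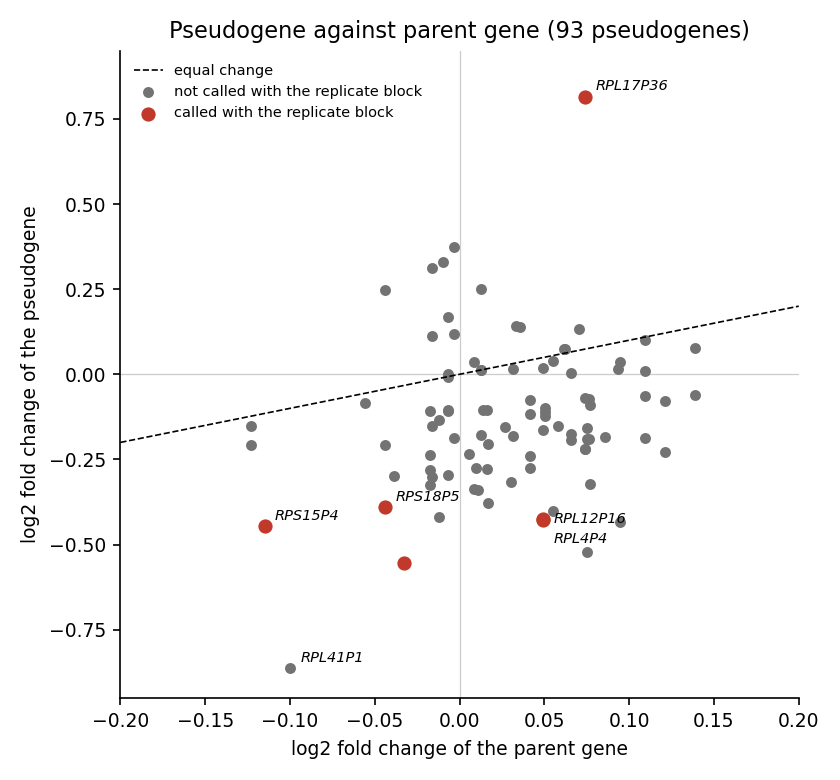
Log2 fold change of each of the 93 pseudogenes (vertical axis) against that of its parent gene (horizontal axis, on a wider scale), LMB+auxin over LMB. The dashed line marks equal change, red points mark the 6 members called with the replicate block (those of RPL4P4 and RPL12P16 coincide), and 75 points lie below the line.

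For single members, the log2 ratio to the parent was formed in each library with 0.5 CPM added to each value. The ratios of RPL4P4, RPL12P16, RPS18P5 and RPS15P4 changed by -0.46, -0.44, -0.33 and -0.26. For these 4 pairs of genes the libraries of the 2 groups did not overlap, also where the CPM of the pseudogene alone did. These members were picked because they were called lower in the same libraries, so this is a description with no test. Over all 93 members the ratios of the groups did not overlap for 25 that were lower with auxin and for 2 that were higher. No like share over all tested genes is given here, so these counts have no background. By CPM alone they were 6 and 2 (6.45% and 2.15%), beside 6.63% and 4.9% of all tested genes. For RPL17P36 and RPL17 the ratio changed by 0.63 and the groups overlapped.

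The closeness of a member to its parent in sequence moved with its change. The 24 members under 95% identity had a median of 0.01 on the log2 scale, with 11 lower. The 27 members from 95% to 98% had a median of -0.15, with 19 lower. The 42 members at 98% or more had a median of -0.19, with 36 lower and 39 below their parent. With the block, 1, 4 and 19 members of these classes, from low to high identity, were lower at an unadjusted p under 0.05 by edgeR. Of all tested genes 11.8% were. Across the 93 members, which share libraries and in part parents, Pearson's r between identity and log2 fold change was -0.315 and Spearman's rho -0.445. Identity also moved with level (rho 0.421), and the part of each in these values was not tested. Among members under 5 CPM the median was -0.20 for the 16 with at least 98% identity and -0.11 for the 45 below it. Among members of 5 CPM or more it was -0.19 for 26 members of high identity, of which 23 were lower, and 0.01 for 6 below 98%.

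**Figure D4:**
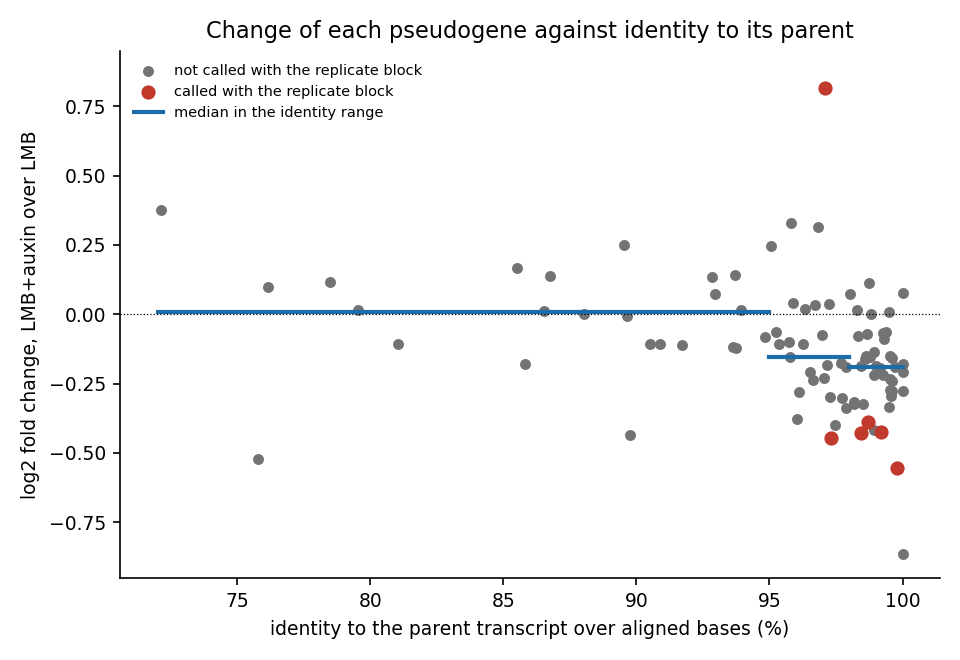
Log2 fold change of each pseudogene (vertical axis) against identity to the parent transcript over the aligned bases (horizontal axis, %). Blue lines give the median in 3 identity ranges, 0.01 under 95%, -0.15 from 95% to 98% and -0.19 at 98% or more, and red points mark the members called with the replicate block.

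Other properties that the choice of members did not use were set beside the change in the same way. The 21 members of which under 50% of windows were unique had a median of -0.18, the 35 with 50% to 95% unique windows had -0.18, and the 36 with 95% or more had 0.01. The 40 members with the reading frame kept had a median of -0.19 and the other 53 of -0.11. Large-subunit copies (57, median -0.15) and small-subunit copies (36, median -0.13) were close to each other. The 15 members that overlapped an exon of another tested gene had a median of 0.00, with 7 lower. The 27 inside a tested gene but outside its exons had -0.15, and the 51 clear of any tested gene had -0.16. Among those 15, RPL32P29 lies wholly in an RPS29 exon, RPS26P19 in one of POLR2D and RPS20P21 in one of TMEM70, each on the same strand, so their counts cannot be told apart from those genes by position. Their log2 fold changes were 0.01, 0.02 and -0.43, beside 0.10, 0.09 and -0.05 for the genes around them. Whether identity, shared windows or overlap accounts for the shift was not tested.

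Among members that moved the same way in all 3 pairs, the most negative log2 fold changes beside those above were those of RPL41P1 and RPL7P42, and neither was called with or without the block. RPL41P1, an identical copy of the very short RPL41 coding sequence (81 bases, chromosome 20), was at 1.59, 1.70 and 1.31 CPM in LMB and at 0.135, 1.27 and 1.10 CPM in LMB+auxin. The groups did not overlap, but LMB+auxin replicate 1, with 4 counts against 35 to 53 elsewhere, stood far below the rest. The log2 fold change was -0.86 (SE 0.48), at an adjusted p of 0.954 by edgeR. It was -0.37 without LMB+auxin replicate 1, and with the block it was called only when pair 2 or pair 3 was left out, at -1.18 and -1.25. RPL7P42, at 75.8% identity a diverged 3-exon copy that overlaps an exon of NUP107-DT on the opposite strand, had a log2 fold change of -0.52 (SE 0.28), overlapping groups, and values from -0.80 without LMB+auxin replicate 1 to -0.34 without LMB replicate 1.

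After RPL17P36, the most positive log2 fold changes among members higher in all 3 pairs were those of RPL37P2, RPS2P7, RPL32P24 and RPS18P9, and none was called with or without the block. RPL37P2 was at 0.832, 1.32 and 0.946 CPM in LMB and at 1.42, 1.48 and 1.01 CPM in LMB+auxin, with a log2 fold change of 0.33 (SE 0.25) that ran from 0.21 without LMB replicate 1 to 0.54 without LMB replicate 2. RPS2P7 was at 4.12, 6.22 and 4.51 CPM and at 6.11, 6.59 and 5.76 CPM, with 0.31 (SE 0.16), which ran from 0.20 to 0.52 without the same libraries. In both cases the groups overlapped. RPL32P24, wholly inside an exon of ANKRD42, had 0.25 (SE 0.18), or 0.16 without LMB+auxin replicate 1, and its groups did not overlap. RPS18P9 also had 0.25 (SE 0.18), with overlapping groups.

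The most abundant members did not share one direction. RPS2P5, a copy of a small-subunit gene on chromosome 12 (118246084 to 118246962, plus strand), was at 208, 281 and 239 CPM in LMB and at 242, 306 and 239 CPM in LMB+auxin. It was slightly higher in each pair with overlapping groups, and its log2 fold change was 0.11 (SE 0.13). RPL13P12, a copy of a large-subunit gene, was at 43.1, 56.3 and 45.4 CPM and at 35.7, 50.9 and 40.6 CPM, lower in each pair. Its log2 fold change was -0.19 (SE 0.14), and it was -0.05 without LMB replicate 2, -0.08 without LMB+auxin replicate 1 and -0.34 without LMB+auxin replicate 2. With the block the edgeR adjusted p was 0.0315 at a change under 1.3-fold. RPS28P7 had -0.21 (SE 0.16) with overlapping groups, -0.05 without LMB+auxin replicate 1 and -0.41 without LMB+auxin replicate 2, and with the block its adjusted p by edgeR was 0.0444 at a change under 1.3-fold. RPS27AP16 had -0.07 (SE 0.14) and RPL39P5 had 0.01 (SE 0.11), both with overlapping groups. Exons of AMOTL2 on the same strand cover 41.6% of RPL39P5, so reads there could belong to either gene. AMOTL2 was at a mean of 219 CPM, with a log2 fold change of -0.08. RPS27A is made as a fusion with ubiquitin, and RPL39 is another protein of the exit tunnel.

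Per kilobase of exon, the members stood far below their parents. Their level per kilobase was a median of 0.661% of that of the parent's reference transcript, under 1% for 54 members and over 5% for 14. RPS28P7 was the highest, at 115 CPM per kilobase beside 138 for RPS28, and all of its windows also occur in RPS28. RPL14P1 followed at 19.6%, RPL13P12 at 19.4% and RPS2P5 at 15.4%.

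Copies of one parent did not always move alike. RPL23A, with 91 copies in the table, had the most tested ones. The 6 ran from -0.30 (RPL23AP42, 99.6% identity) to 0.17 (RPL23AP64, 85.5% identity), 4 of them lower, beside -0.01 for RPL23A. With the block, edgeR gave RPL23AP42 an adjusted p of 0.0262 at a change below 1.3-fold, and exons of ENSG00000269888 and LINC02067 overlap it on the opposite strand, with log2 fold changes of -0.33 and -0.30. The 4 copies of RPL7A were all lower, from -0.32 (RPL7AP6) to -0.11 (RPL7AP50), and so were the 3 of RPL5 and the 3 of RPL7. The 4 of RPS3A ran from -0.19 to 0.10 and were all below their parent, which was at 0.11. The 3 of RPL13 ran from -0.19 to 0.38.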

How the data were processed

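The authors prepared ribosomal RNA-depleted total RNA libraries (TruSeq, Ribo-Zero Gold), sequenced paired-end reads and deposited raw counts per Ensembl gene. The submitters' processing notes name CASAVA 1.8.2, STAR 2.6.1c and featureCounts 1.5.2 on GRCh38. Strand and multiple-match settings are not given in the sources used here. Symbols (56948 of 58051 identifiers), exons and coordinates are from GENCODE 44. Genes above 1 CPM in at least 3 libraries were tested with edgeR 4.0.16 in R 4.3.3 (TMM scaling, quasi-likelihood test, Benjamini-Hochberg over 16974 genes). Standard errors are the log2 fold change over the square root of F. CPM values use TMM factors. Alternatives used DESeq2 1.42.0 and limma 3.58.1. Replicates were described as independent. The fit was tested on simulated data.

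Replicate numbers were taken to pair libraries because deviations from group means correlated within numbers at 0.531, 0.691 and 0.273 over genes. Across numbers the correlations were 0.146 and 0.142 between 1 and 3, and from -0.573 to -0.300 between 2 and the others. The pairing was thus chosen from these same data. The labels do not say what a number marks.

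Copies were aligned to the parent's MANE transcript (match 2, mismatch -3, gap open -5, extension -2). Windows of the read length were searched exactly on both strands of the main chromosomes and in annotated transcripts. Members and lists were chosen with earlier results of these data known. Named members were RPL18AP3, all called members, the 5 largest rises and falls that moved one way in 3 pairs, and the 5 most abundant. Names in the accounts of families, overlaps and the threshold were chosen after their values were seen. Some values against a parent gene are not reported here.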

Additional observations from a re-analysis of the deposited data

How the results depend on the processing

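Without the replicate block, edgeR called 0 members under each other planned scaling, the stricter filter, DESeq2, limma-voom and each library left out (range 0 to 0). With no filter on low counts it called 1 of 1057 members, RPL17P36, beside 0.0993% of all genes. The share of members below their parent then fell to 57.5%, and the median log2 fold change rose to -0.05. With the block edgeR called 6, and with pair 1, 2 or 3 left out as well it called 9, 5 and 4, beside 0.831%, 0.943% and 0.807% of all tested genes (these, and DESeq2 with the block, were chosen after seeing the data). DESeq2 with the block called 0. The block changed no call of a ribosomal protein gene. With the block, 5 of the 6 calls were among the 78 members without exon overlap and 4 among the 71 with at least 50% unique windows. These are counts from the same fit, which called 1.18% of all tested genes. Leaving out 1 library moved the share below the parent from 73.1% to 84.9% and the median from -0.19 to -0.06.

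Of 303 refitted log2 fold changes of the 17 named members, 8 changed sign, in 3 members near 0. RPS2P5 was at -0.010 without LMB+auxin replicate 2 and between that and 0.24 without any single library. RPL39P5 was at -0.047, -0.011 and -0.039 without LMB replicate 1, LMB replicate 2 or LMB+auxin replicate 2 (range to 0.11), and at -0.064 with the block and pair 2 left out. RPS27AP16 was at 0.037 and 0.0054 without LMB replicate 2 or LMB+auxin replicate 1 (range from -0.20), and at 0.041 with the block and pair 2 left out. The ratio of RPL39P5 to its parent was 0.080 and 0.056 without LMB replicate 3 or LMB+auxin replicate 1 (range from -0.066). The cause was not tested. Of the 35 members under 2 CPM, edgeR with the block called 0, beside 1.85% of all 2003 genes of that level, while 4 had an unadjusted p under 0.05 and were lower and 1 was higher.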

Other observations

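Copies of RPSA and of the RPLP stalk protein genes, whose symbols fall outside the rule used for the members, were few at this depth. Of 91 in the table, 6 were tested, 5 with a negative log2 fold change, at a median of -0.04. None was called by edgeR with or without the replicate block, 0 had an unadjusted p under 0.05 without it and 1 had one with it, and 0 were called by DESeq2. Their median log2 difference was -0.14 in pair 1, -0.11 in pair 2 and 0.13 in pair 3.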
